A study of Sus scrofa with 50 samples.

Results

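The calcium pumps, calcium buffers and calcium release channel of skeletal muscle were followed through 5 tissues of the Korean minipig (Sus scrofa). The set was defined as 8 Swiss-Prot protein entries, and a transcript was counted for an entry when that entry was its best BLASTX hit at an E value of at most 1e-10. Of the 8 entries, 6 were found: the pumps AT2A1 and AT2A2, the luminal buffers CASQ1 and CASQ2, the cytosolic buffer PRVA and the release channel RYR1. These 6 genes were made of 17 transcripts, out of 14414 genes and 32157 usable transcripts in all. No transcript had sarcolipin (SARCO) as its best hit, so that entry is not analysed here. Phospholamban (PPLA) was the best hit of 1 transcript at an E value of 3.04e-08, outside the limit. That 2898-base transcript matched it over 25 residues. Its values are given apart, under a limit of 1e-05 that was not planned but added later.

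RNA was sequenced from backfat, brain, loin, lymph and tenderloin of 5 pigs of the ET type (codes S0235, S0242, S0276, S0309, S0326) and 5 pigs of the L type (codes S0349, S0355, S0377, S0384, S0385). Each animal gave 1 library per tissue, and no treatment, age or sex is given in the labels. What ET and L stand for is not given in the labels. The deposited values are TPM, transcript abundances corrected for length that sum to 1000000 in each library, so the read depth behind each value is unknown and precision rests on the spread between animals.

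Of the 50 libraries, 45 entered the results. The libraries labelled L loin and L backfat of S0355 went against their labels. The L loin library held 26.8 TPM over 6 general skeletal muscle entries and 13010 TPM over 7 adipocyte entries, while the L backfat library held 48033 TPM and 219.7 TPM over the same lists. The brain libraries of both S0235 and S0355 and the lymph library of S0235 also stood apart. The left-out brain libraries held 18.8 and 26.2 TPM over 3 pituitary hormone entries and 42707 and 68638 TPM over 3 myelin and glial entries. The 8 kept libraries labelled brain held 20971 to 82994 TPM of the hormones and 42.7 to 121.3 TPM of the glial entries. By these lists the kept libraries labelled brain resembled pituitary, and the left-out ones resembled brain. The left-out lymph library held 21.2 TPM over 6 lymphocyte entries, against 2160 to 3083 TPM in the kept ones. The 9 kept loin libraries held 28161 to 60964 TPM over the general skeletal muscle list, and the 10 tenderloin libraries 35036 to 72725 TPM.

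A muscle fibre contracts when RYR1, a channel in the membrane of the sarcoplasmic reticulum, lets stored calcium into the cytosol, and it relaxes when the SERCA pumps return that calcium. SERCA1 (entry AT2A1) is the pump of fast fibres, and SERCA2 (AT2A2) is that of slow fibres and, in another splice form, of most other cells. Inside the store, calcium is held by calsequestrin, with CASQ1 as the skeletal form and CASQ2 as the cardiac form that slow fibres also make. Parvalbumin (PRVA) binds calcium in the cytosol of fast fibres of small mammals and speeds relaxation, and phospholamban restrains SERCA2.

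Each gene's muscle signal came almost wholly from a single transcript. The leading transcript carried 98.7% of the summed muscle TPM of AT2A1, 96.5% of AT2A2, 99.5% of CASQ1 and 96.7% of RYR1, and CASQ2 and PRVA had 1 transcript each. The AT2A2 transcript, assembled from lung, matched pig SERCA2 over all of residues 1 to 1042 without a mismatch. TPM was summed per entry, so the splice forms of SERCA2 were not separated, and AT2A2 levels in muscle are not those of the slow-fibre form alone. The RYR1 transcript matched the pig channel from residue 11 to 4246 at 99.8% identity. The other leading transcripts matched their entries in other species, at 97.1% for AT2A1, 94.1% for CASQ1, 94.6% for CASQ2 and 94.5% for PRVA. The member hits nearest the limit from inside were short stretches of CASQ1 at 1.11e-12 and AT2A1 at 4.87e-13, and hits to RYR1 at 3.64e-08 and to CASQ1 at 5.29e-08 fell outside it. AT2A1 and AT2A2 are close relatives whose shared reads the quantification could have divided between them.

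In the RefSeq annotation of Sscrofa11.1, the build that the submitters' processing notes name, the genes lie apart from each other. ATP2A1 (entry AT2A1) is on chromosome 3 from 18545064 to 18568312, and ATP2A2 (AT2A2) on chromosome 14 from 31674659 to 31744981. CASQ1 and CASQ2 are both on chromosome 4, from 90276752 to 90288990 and from 104918204 to 104984019. PVALB (PRVA) is on chromosome 5 from 10953559 to 10973300, RYR1 on chromosome 6 from 47339759 to 47458457, and PLN (PPLA) on chromosome 1 from 43449354 to 43458925.

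All 6 genes were higher in muscle than in the kept libraries of the other tissues. Each passed limma's test of loin and tenderloin against backfat, lymph and brain, against 15.6% of 13447 genes that were called higher in muscle and 75.6% called lower. With median-ratio scaling 37.4% were called higher and 48.2% lower, and all 6 remained called. The differences in log2(TPM + 1) were 9.40 for AT2A1, 7.63 for RYR1, 7.21 for CASQ1, 4.16 for AT2A2, 2.71 for CASQ2 and 2.68 for PRVA, with standard errors (SE) of 0.21, 0.12, 0.19, 0.14, 0.18 and 0.20 in the same order and adjusted p of at most 3.32e-16. That fit took the libraries of an animal as separate samples. With the animal as a term in the limma fit, all 6 kept their calls, at adjusted p of at most 7.6e-12. PPLA, under the looser limit, differed by 5.83 (SE 0.20), against 15.6% of genes called higher there as well. The median gene in this comparison lay 1.04 lower in muscle.

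AT2A1 had the largest fitted difference in log2(TPM + 1) between muscle and the other tissues among the 6 genes. Its TPM ran from 1977 to 4630 in loin (median 3193) and from 495.4 to 1821 in tenderloin (median 1201), ranges that did not overlap. In lymph it lay between 0.95 and 2.89 TPM, in libraries labelled brain between 1.11 and 2.05, and in backfat between 0.37 and 22.8, so these tissues could not be ordered. AT2A2 was found everywhere and ran in another order. It held 124.5 to 388.1 TPM in loin (median 229.9) and 445.6 to 1633 in tenderloin (median 770.5), then 31.2 to 62.1 in libraries labelled brain, 15.5 to 33.2 in lymph and 6.57 to 40.5 in backfat. Both muscles stood apart from every other tissue for AT2A2, and the ranges of brain and lymph, and of lymph and backfat, overlapped.

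The buffers differed from each other in how much muscle RNA they made up. CASQ1, with 538.4 to 4395 TPM in loin and 435.1 to 2080 in tenderloin, overlapped AT2A1 in both muscles and lay above AT2A2 in every loin library, whereas CASQ2 reached 2.34 to 15.1 TPM in loin and 3.54 to 59.8 in tenderloin. Outside muscle CASQ1 lay between 0.97 and 23.5 TPM. Part of that came from a 4964-base transcript that matched calsequestrin at 55.6% identity over 97 residues. That transcript averaged 3.27 of 5.72 TPM of CASQ1 in backfat, 5.63 of 11.25 in libraries labelled brain and 3.11 of 13.89 in lymph. CASQ2 was between 0.051 and 4.48 TPM in backfat, overlapping loin, and at most 0.44 in lymph and 0.12 in libraries labelled brain. Among the kept libraries PRVA was mostly found in loin, with 1.16 to 120.6 TPM there and 0.094 to 6.38 in tenderloin. It was at most 0.47 TPM in the kept libraries of the other 3 tissues, and 7 of 9 backfat libraries listed it at 0. The left-out brain libraries of S0235 and S0355 held 31.9 and 45.5 TPM of PRVA, above every tenderloin and every L loin library.

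RYR1 ran from 321.4 to 993.1 TPM in loin and from 236.0 to 557.8 in tenderloin. In libraries labelled brain it held 1.45 to 3.74 TPM, in lymph 0.45 to 2.14 and in backfat 0.30 to 2.81. These lower ranges overlapped, and each lay below both muscles. PPLA held 32.4 to 196.4 TPM in loin and 232.3 to 762.7 TPM in tenderloin without overlap, and 1.17 to 38.7 TPM in backfat, which overlapped loin.

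**Figure D1:**
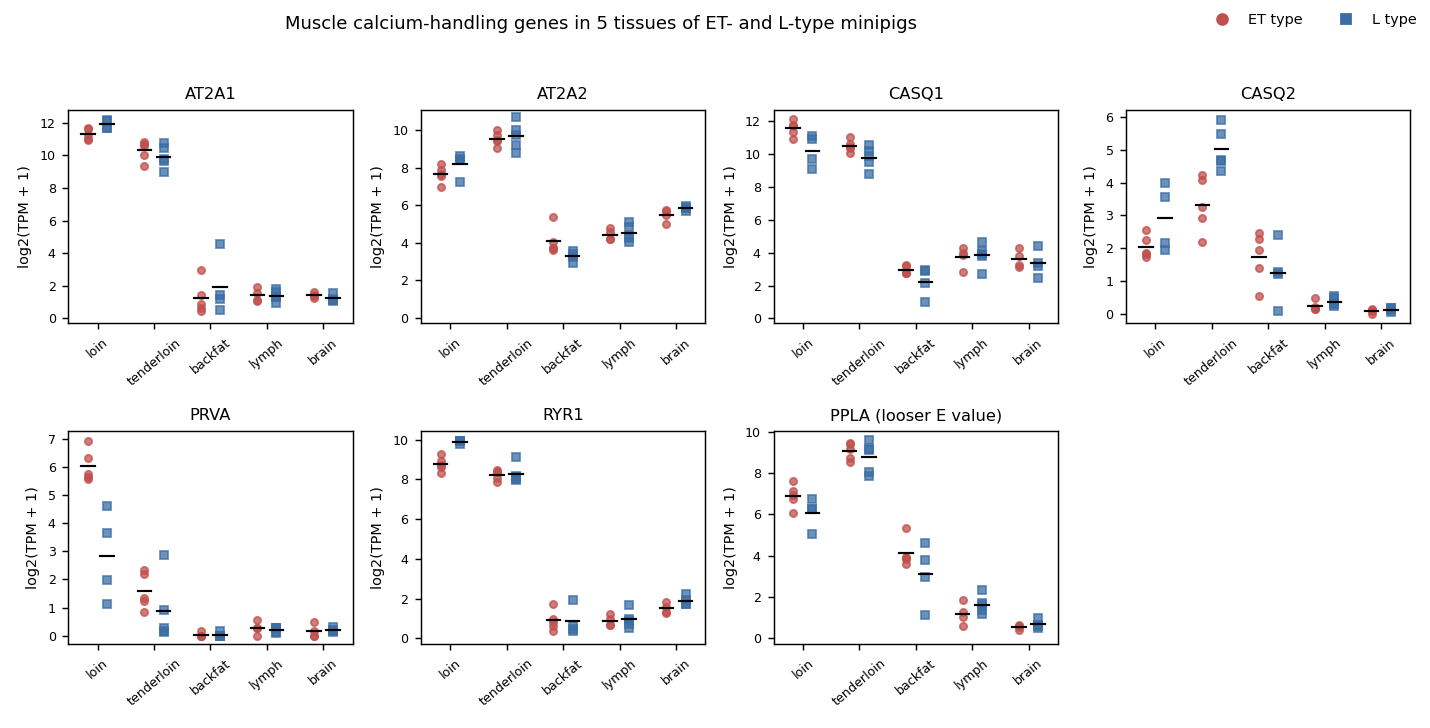
Levels of the 6 genes and of PPLA (found only under the looser E value limit) in 45 libraries, as log2(TPM + 1) on the vertical axis, by tissue on the horizontal axis. Circles are ET libraries, squares are L libraries and black bars are group means. AT2A1, CASQ1, PRVA and RYR1 are highest in loin, while AT2A2, CASQ2 and PPLA are highest in tenderloin.

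Both muscles held all 6 genes, some at higher levels in loin and others at higher levels in tenderloin. AT2A1, CASQ1, PRVA and RYR1 were higher in loin and AT2A2 and CASQ2 were lower in loin, so that all 6 passed limma's test over 9 loin and 10 tenderloin libraries with the type as a term. In this comparison 19.7% of 10775 genes were called higher in loin and 15.4% lower. Each of the 6 differed in the same direction in 9 of 9 animals that gave both muscles. The limma fit behind the differences given below took the muscles of an animal as separate samples. With the animal as a term in the fit, all 6 kept their calls (limma adjusted p of at most 0.00128). There 2280 of 10775 genes were called higher in loin and 2147 lower.

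The fast-fibre pump AT2A1 was 1.46 higher in loin on the log2 scale (SE 0.25, adjusted p = 0.000202). Within an animal its loin value was 1.21 to 6.54 times its tenderloin value, with a median of 2.55 times. The slow-fibre pump AT2A2 was 1.70 lower in loin (log2 difference -1.70, SE 0.23, adjusted p = 2.81e-05), and its loin value was 0.15 to 0.87 times the tenderloin value of the same animal. Neither pump's loin and tenderloin ranges overlapped, which was so for 2.0% of all genes tested. As a share of the TPM of both pumps, AT2A1 made up 87.2% to 96.1% in ET loin and 90.1% to 96.6% in L loin. In tenderloin the same share was 50.2% to 70.4% in ET animals and 23.3% to 74.1% in L animals. S0349, an L animal, had the lowest share, with 495.4 TPM of AT2A1 and 1633 TPM of AT2A2 in its tenderloin.

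The calsequestrins moved in opposite directions. CASQ1 was 0.74 higher in loin (log2, SE 0.27, adjusted p = 0.036), with 1.12 to 3.07 times as much TPM in the loin as in the tenderloin of the same animal. That call was lost with median-ratio scaling (adjusted p = 0.0659) and without S0242, S0276, S0309, S0326 or S0349 in turn (adjusted p = 0.0588 to 0.0978), while a replicate block, that is the animal as a term in the fit, gave 0.80 (adjusted p = 0.00128) and, with scaling, 0.79 (adjusted p = 0.00586). CASQ2 differed by -1.68 (SE 0.31, adjusted p = 0.000424) and was 0.14 to 0.66 times as high in loin. Both calsequestrins overlapped between the muscles.

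PRVA had the largest fitted difference between the muscles among the 6 genes. Its loin values were 5.19 to 96.4 times the tenderloin values of the same animal, with a median of 30.3 times, and the fitted difference was 3.28 (SE 0.49, adjusted p = 6.77e-05). This log2(TPM + 1) difference understates the ratio, because 5 of 10 tenderloin libraries held about 1 TPM or less. The loin range reached down to 1.16 TPM in S0385, below the 6.38 TPM of the S0355 tenderloin, so the muscles overlapped. RYR1 was 1.06 higher in loin (SE 0.19, adjusted p = 0.000356), at 1.196 to 3.99 times the tenderloin value of the same animal. PPLA, the partner of AT2A2, was 2.41 lower in loin (log2 difference -2.41, SE 0.26, adjusted p = 5.09e-06, under the looser limit, where 15.4% of genes were called lower), and all 9 animals had less of it in loin.

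**Figure D2:**
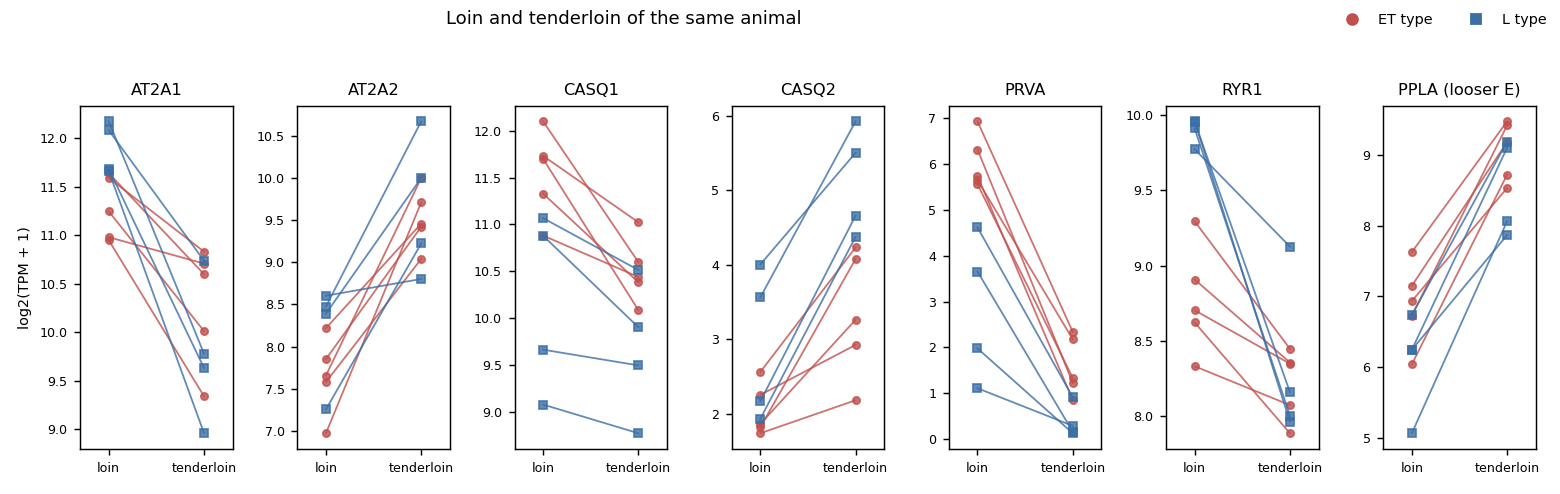
Loin and tenderloin of the 9 animals that gave both, 1 line per animal, as log2(TPM + 1) on a vertical axis of its own in each panel; circles are ET and squares are L animals. Lines for AT2A1, CASQ1, PRVA and RYR1 all run down towards tenderloin, and those for AT2A2, CASQ2 and PPLA all run up.

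Fibre-type markers moved with these differences. All 8 matched fast-fibre entries were higher in loin and all 7 slow-fibre entries were lower, with MYH4, the fast type 2B myosin, at 13615 TPM in loin and 167.2 in tenderloin. Summed fast-fibre TPM was 44792 to 118093 in loin and 11495 to 42902 in tenderloin, and summed slow-fibre TPM was 7908 to 43476 in loin and 41110 to 107781 in tenderloin. No marker of either list was at 0 in all libraries of a muscle group. Their part in the differences of the calcium genes was not tested, and in bulk tissue fewer cells of a type and less RNA per cell cannot be told apart. Of the general skeletal muscle list 2 of 6 entries were higher in loin and 1 was lower, and both haemoglobin entries tested and 5 of 6 smooth muscle entries were lower.

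In loin, ET and L animals differed in 3 of the 6 genes. RYR1 was lower and PRVA and CASQ1 were higher in ET, while AT2A1, AT2A2 and CASQ2 did not pass. In this comparison of 5 ET with 4 L libraries, 6.17% of 10572 genes were called higher and 25.2% lower in ET, and the median gene differed by -0.23 on the log2 scale. With median-ratio scaling that median was -0.03 and the calls were 10.6% higher and 13.7% lower, and the same 3 members were called. With all 10 labelled loin libraries, which brings in the library labelled L loin of S0355, 1 member passed, PRVA, and RYR1, AT2A1 and AT2A2 took the opposite sign.

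RYR1 was at 321.4, 627.0, 416.1, 479.5 and 393.3 TPM in ET loin (S0235, S0242, S0276, S0309 and S0326) and at 993.1, 960.9, 873.5 and 992.1 TPM in L loin (S0349, S0377, S0384 and S0385). Every ET animal was below every L animal, as was so in one direction or the other for 25.4% of genes, and the L animals were close together. The group means were 447.5 ± 115 TPM in ET and 954.9 ± 56.3 TPM in L (SD, n = 5 and 4), a log2 difference of -1.13 (SE 0.19, adjusted p = 0.00313). Leaving out any 1 animal kept the call, with differences from -1.26 to -1.02.

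PRVA was at 49.2, 78.4, 46.1, 52.2 and 120.6 TPM in ET loin in the same order of animals, and at 11.6, 2.94, 23.5 and 1.16 TPM in L loin. The groups did not overlap, and the L values were spread over a wide range on a ratio scale. Parvalbumin averaged 69.3 ± 31.4 TPM in ET and 9.80 ± 10.2 TPM in L, a log2 difference of 3.19 (SE 0.60, adjusted p = 0.00418), and the call held without any 1 animal.

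CASQ1 was at 1885, 3403, 4395, 2573 and 3329 TPM in ET loin, against 1883, 809.0, 2145 and 538.4 TPM in L loin. Of the ET animals, S0235 lay within the L range and the other 4 lay above it. The means were 3117 ± 945 and 1344 ± 789 TPM, and the log2 difference was 1.38 (SE 0.40, adjusted p = 0.0245). The call was lost without S0326, S0377 or S0385, with adjusted p of 0.0563, 0.075 and 0.0712.

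The pumps did not pass in loin. AT2A1 was at 2020, 3089, 3193, 2430 and 1977 TPM in ET and at 3241, 3294, 4343 and 4630 TPM in L, so the groups did not overlap, and the log2 difference of -0.62 (SE 0.23) had an adjusted p of 0.0549. It was -0.40 with an adjusted p of 0.213 after median-ratio scaling, and without S0276 it passed at -0.71 (adjusted p = 0.0386). AT2A2 was at 297.0, 124.5, 229.9, 200.8 and 190.2 TPM in ET, against 354.9, 334.6, 151.7 and 388.1 TPM in L, a log2 difference of -0.53 (SE 0.30, adjusted p = 0.198). The cardiac calsequestrin CASQ2 was at 4.90, 2.64, 2.34, 2.52 and 3.77 TPM in ET and at 15.05, 10.8, 2.82 and 3.49 TPM in L, a log2 difference of -0.87 (SE 0.39, adjusted p = 0.111). S0384 had the least AT2A2 and CASQ2 of the L animals, and without it both passed, at -0.83 (adjusted p = 0.027) and -1.198 (adjusted p = 0.0312). PPLA was at 64.7 to 196.4 TPM in ET and 32.4 to 105.5 TPM in L, a log2 difference of 0.82 (SE 0.35, adjusted p = 0.0944, looser limit).

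Other markers also differed between the types in loin. Of 8 fast-fibre entries 3 were higher in ET (MYH2, TNNC2 and MYL1) and none lower, and of 7 slow-fibre entries 1 was higher (MYL3). Summed fast-fibre TPM was 56668 to 118093 in ET and 44792 to 82928 in L, and summed slow-fibre TPM was 8632 to 43476 in ET and 7908 to 27657 in L. Both haemoglobin entries tested were higher in ET, and the summed blood list was 28.8 to 92.0 TPM in ET and 3.10 to 12.7 in L without overlap. Of the smooth muscle list 2 of 6 were higher in ET, among them CNN1, and summed TPM was 121.3 to 312.2 in ET and 98.8 to 129.8 in L. In the general skeletal muscle list ACTS was higher and DESM and NEBU were lower in ET. The adipocyte list had 1 of 4 entries lower in ET, LIPS (13.9 and 61.2 TPM, log2 difference -2.02, adjusted p = 0.0079), with sums of 117.9 to 194.4 TPM in ET and 152.9 to 235.7 in L. COLI of the pituitary list was lower in ET as well (1.94 and 5.08 TPM, log2 difference -1.05, adjusted p = 0.00213). The part of these differences in those of RYR1, PRVA and CASQ1 was not tested.

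In tenderloin none of the 6 genes passed, where 1.63% of 10852 genes were called in either direction, 152 higher and 25 lower in ET, against 73 and 32 with median-ratio scaling. CASQ2 was closest. It was at 17.8, 8.60, 3.54, 15.9 and 6.59 TPM in ET (S0235, S0242, S0276, S0309 and S0326), against 44.4, 25.2, 59.8, 19.8 and 24.3 TPM in L (S0349, S0355, S0377, S0384 and S0385). Every ET animal lay below every L animal, as was so in one direction or the other for 5.24% of genes. The log2 difference was -1.70 (SE 0.40, adjusted p = 0.0576), and it passed without S0235 (adjusted p = 0.0468) or S0385 (adjusted p = 0.0484).

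The other 5 genes overlapped between the types in tenderloin. CASQ1 was at 1387, 2080, 1547, 1333 and 1084 TPM in ET and at 955.2, 1152, 719.9, 1460 and 435.1 TPM in L, a log2 difference of 0.74 (SE 0.30, adjusted p = 0.205). AT2A1 averaged 1344 ± 491 TPM in ET and 1048 ± 485 TPM in L, and AT2A2 averaged 755.3 ± 187 and 912.6 ± 461 TPM (SD, n = 5 each). RYR1 was at 236.0 to 348.2 TPM in ET and at 248.9 to 557.8 TPM in L, where S0384 stood alone above 285.1 TPM. PRVA was at 0.80 to 4.05 TPM in ET, and in L it was at 6.38 TPM in S0355 and at 0.094 to 0.89 TPM in the other 4 animals. Adjusted p values were 0.584, 0.812, 0.933 and 0.46 for AT2A1, AT2A2, RYR1 and PRVA. The PRVA difference was 0.71 with 1 added to the TPM and 1.70 with 0.1 added (adjusted p = 0.296).

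**Figure D3:**
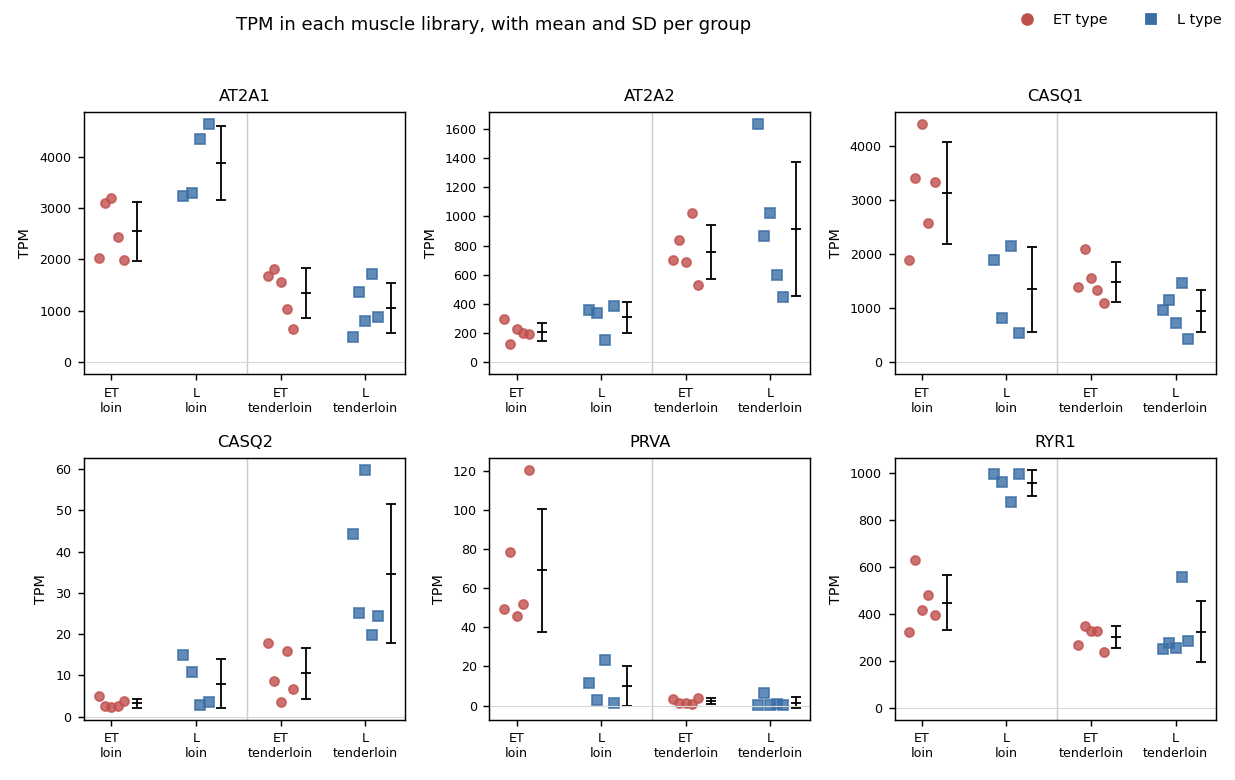
TPM of the 6 genes in each loin and tenderloin library, with ET circles left of L squares and black bars for the mean and SD of each group (n = 5, but 4 in L loin). In loin, RYR1 is lower and PRVA higher in every ET animal than in any L animal, and in tenderloin CASQ2 is lower in every ET animal.

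Whether the type difference depended on the muscle was tested as an interaction, the ET minus L difference in loin less that in tenderloin. None of the 6 genes was called in the fit of 4 group means, where 1.7% of genes were, and the values were -1.08 for RYR1 (SE 0.30, adjusted p = 0.0632), 2.49 for PRVA (SE 0.85, adjusted p = 0.103) and -1.01 for AT2A1 (SE 0.45, adjusted p = 0.194). With the replicate block, which pairs the muscles of an animal and in which the lone S0355 tenderloin adds nothing, 9.63% of genes were called and with them RYR1 at -1.04 (SE 0.27, adjusted p = 0.0357), PRVA at 1.98 (SE 0.53, adjusted p = 0.0365) and AT2A1 at -1.14 (SE 0.32, adjusted p = 0.0421). With both the block and median-ratio scaling 2.47% of genes were called and none of the 6 was, at -0.74 for RYR1 (adjusted p = 0.142), 2.18 for PRVA (adjusted p = 0.059) and -0.85 for AT2A1 (adjusted p = 0.169). The PRVA value rested on the 1 added to each TPM, since 4 of the 5 L tenderloins were below 1 TPM. In the blocked fit with 0.1 added instead, an alternative chosen after seeing the data in which 8.85% of genes were called, PRVA was at 0.95 (SE 0.63, adjusted p = 0.316), while AT2A1 (-1.14, adjusted p = 0.0435) and RYR1 (-1.04, adjusted p = 0.037) kept their calls. With nothing added, PRVA in loin was 14.0 to 64.8 times its tenderloin TPM in ET animals (median 30.3) and 5.19 to 96.4 times in L animals (median 28.9), ranges that overlapped. No interaction passed in the unblocked fits apart from RYR1 without S0384 (-1.33, adjusted p = 0.026). Within an animal, RYR1 in loin exceeded tenderloin by 0.26 to 0.85 on the log2 scale in ET animals and by 0.65 to 1.99 in L animals. The median gene had an interaction of -0.28, and of -0.02 with scaling. Of the genes called, 13 had a positive and 170 a negative interaction, against 18 and 15 with scaling, and in the blocked fit 74 and 964, against 137 and 129 with scaling.

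**Figure D4:**
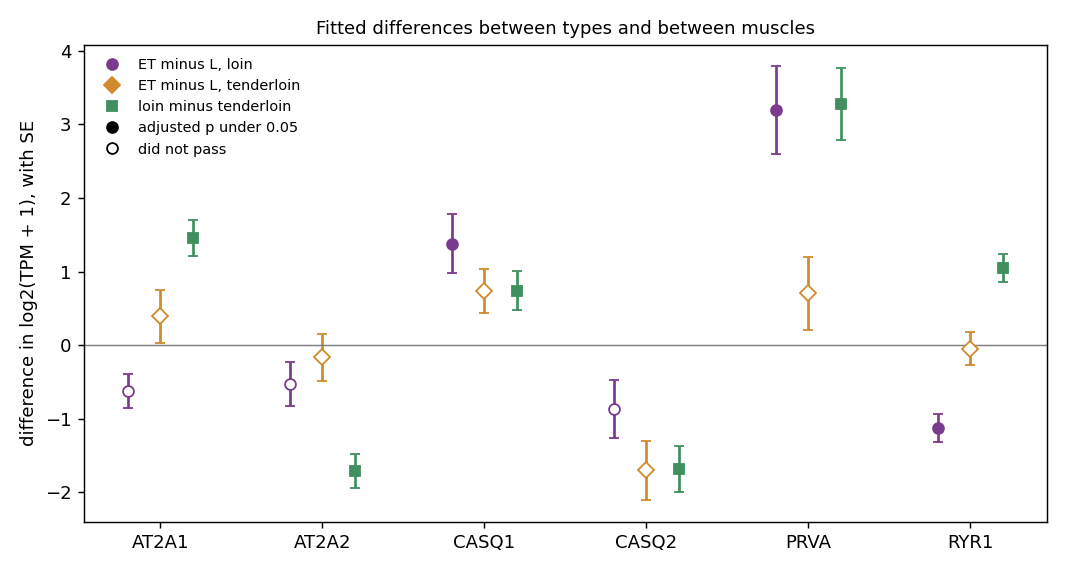
Fitted differences in log2(TPM + 1) of the 6 genes on the vertical axis, with bars for 1 SE: ET minus L in loin (circles), ET minus L in tenderloin (diamonds) and loin minus tenderloin (squares). Filled symbols passed at an adjusted p under 0.05 over all genes and open ones did not. All 6 muscle differences are filled, 3 of the loin type differences are and no tenderloin type difference is.

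Ratios between genes were also compared within a library. For 4 pairs of genes, 12 comparisons of the log2 ratio of (TPM + 1) were tested by exact two-sided permutation over animals and adjusted over the 12. A plain ratio does not change with the scaling of its library, but the added 1 pulls in the ratios of genes near or below 1 TPM, as PRVA was in tenderloin. The smallest raw p was 0.00794 for a type comparison and 0.00391 for loin against tenderloin. The fast to slow pump ratio, AT2A1 over AT2A2, averaged 3.67 ± 0.67 in loin and 0.47 ± 1.04 in tenderloin (SD, n = 9 each), a difference of 3.20 within animals (exact adjusted p = 0.0234, higher in 9 of 9). No type difference in it passed, with means of 3.63 ± 0.68 and 3.72 ± 0.76 in loin (n = 5 and 4, exact permutation, adjusted p = 0.841) and of 0.77 ± 0.57 and 0.21 ± 1.28 in tenderloin (n = 5 each, exact permutation, adjusted p = 0.524).

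The skeletal to cardiac calsequestrin ratio, CASQ1 over CASQ2, differed between the types in both muscles. In loin it averaged 9.503 ± 0.75 in ET and 7.25 ± 1.31 in L, a difference of 2.25 (exact permutation, adjusted p = 0.0357), with S0384 of the L animals at 9.13, inside the ET range. In tenderloin it averaged 7.17 ± 0.95 in ET and 4.73 ± 1.04 in L, a difference of 2.43 (exact permutation, adjusted p = 0.0238), and the lowest ET value of 6.21 lay above the highest L value of 6.14. As a share of calsequestrin TPM, CASQ2 was 0.053% to 0.26% in ET loin and 0.13% to 1.32% in L loin, and 0.23% to 1.27% in ET tenderloin and 1.33% to 7.67% in L tenderloin. Between the muscles the ratio differed by 2.50 within animals (exact adjusted p = 0.0234).

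Channel and parvalbumin were also set against the fast pump. RYR1 over AT2A1 averaged -2.51 ± 0.28 in ET loin and -2.004 ± 0.31 in L loin, a difference of -0.51 (exact permutation, adjusted p = 0.0318), with a narrow overlap between an ET value of -2.30 and an L value of -2.31. In tenderloin its difference between the types was -0.44 (exact permutation, adjusted p = 0.307), and loin was 0.48 lower than tenderloin within animals (-0.48, exact adjusted p = 0.0281), a call lost when the muscles were permuted as separate samples (-0.43, adjusted p = 0.0816). PRVA over AT2A1 averaged -5.25 ± 0.75 in ET loin and -9.06 ± 1.64 in L loin without overlap, a difference of 3.81 (exact permutation, adjusted p = 0.0238). In tenderloin the difference was 0.32 (exact permutation, adjusted p = 0.641), and loin exceeded tenderloin by 2.07 within animals (exact adjusted p = 0.0357). With nothing added to the TPM, an alternative chosen after seeing the data, the type difference was 4.17 in loin (exact permutation, adjusted p = 0.019) and 1.74 in tenderloin (exact permutation, adjusted p = 0.201), and loin exceeded tenderloin by 3.41 (exact adjusted p = 0.019). Leaving out 1 animal, where fewer permutations exist, kept the calls of the pump and calsequestrin ratios between the muscles in all 9 runs. With 1 added, the type calls in loin were lost in 8 of 9 runs for CASQ1 over CASQ2. They were lost in 8 of 9 for RYR1 over AT2A1 and in 6 of 9 for PRVA over AT2A1. In tenderloin CASQ1 over CASQ2 lost its call in 3 of 10 runs. Between the muscles RYR1 over AT2A1 lost its call in 4 of 9 runs and PRVA over AT2A1 in 7 of 9.

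**Figure D5:**
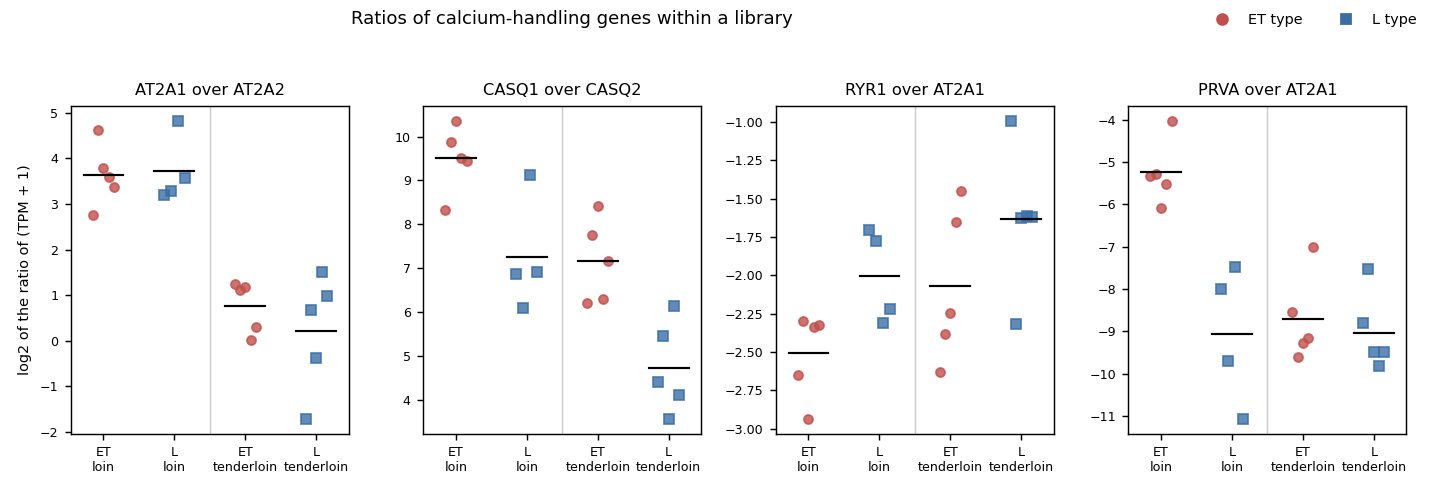
Log2 ratios of (TPM + 1) between pairs of genes within each muscle library, with ET circles left of L squares and black bars for group means. The pump ratio separates loin from tenderloin, the calsequestrin ratio is higher in ET in both muscles, and the parvalbumin ratio has its highest mean in ET loin.

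The pumps and CASQ1 also changed places within a library. CASQ1 TPM exceeded AT2A1 TPM in 4 of 5 ET loin libraries and in 0 of 4 L loin libraries, and in 3 of 5 ET and 1 of 5 L tenderloin libraries. Together the 6 genes made up 0.46% to 0.83% of all TPM in ET loin and 0.54% to 0.75% in L loin, against 0.25% to 0.51% in ET tenderloin and 0.21% to 0.43% in L tenderloin.

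Outside muscle no type difference in these genes passed. In backfat 4 of the 6 passed the filter of a mean TPM of at least 1 and none was called, where 8.57% of 12111 genes were (912 higher and 126 lower in ET, against 493 and 256 with median-ratio scaling), and AT2A2 averaged 18.4 ± 12.5 TPM in 5 ET libraries and 8.82 ± 1.78 in 4 L libraries (limma adjusted p = 0.172). In lymph 3 genes were tested and in libraries labelled brain 4 were, and none was called, where 0.0% of 11982 and 0.0% of 13097 genes were called with limma and 525 and 1079 had an unadjusted p under 0.05. The smallest adjusted p there was 0.616, for AT2A2 in libraries labelled brain, at 43.9 ± 9.28 TPM in ET and 56.8 ± 4.86 TPM in L (SD, n = 4 each).

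The rest of the calcium pathway was read from 5 lists of 82 entries, of which 72 were matched and 68 had enough signal in muscle to be tested. In loin 5 of the 68 were higher in ET and 13 lower, set beside 6.17% and 25.2% of all genes. Of 21 entries of the release channel and triad, where the surface membrane meets the store, 5 were lower in ET and none higher. CAC1S, the voltage sensor that opens RYR1, averaged 154.0 ± 31.2 TPM in ET, against 316.1 ± 20.0 TPM in L, a log2 difference of -1.05 (SE 0.17, adjusted p = 0.00261). JSPR1, which binds that sensor, differed by -1.16 (287.0 and 639.0 TPM), and DYSF and MTM1, which act in membrane repair and membrane lipid turnover, by -0.66 and -0.51. The median of the list was -0.06, against -0.23 for all genes.

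Among the other loin lists, SRCA, a luminal calcium-binding glycoprotein, was 0.49 higher in ET (log2, 271.9 and 192.8 TPM), as were the reticulocalbins RCN1 (0.97) and RCN3 (1.08), while the luminal protein CALU differed by -0.72. PP2BA, a catalytic subunit of calcineurin, was 1.16 higher in ET (82.9 and 39.8 TPM), and the calmodulin kinase subunits KCC2A and KCC2B and the calcineurin inhibitor CABIN differed by -0.73, -0.57 and -0.63. Of 9 mitochondrial uniporter entries 3 were lower in ET, the pore MCU (-0.63), its gatekeeper MICU2 (-0.48) and the exchanger LETM1 (-1.02). The store sensor STIM1 differed by -0.47 and the cation channel TRPC1 by 0.52. With median-ratio scaling 9 of these 17 named entries kept their call and 8 (CABIN, DYSF, KCC2A, KCC2B, MCU, MICU2, MTM1 and STIM1) lost it, with none changing sign.

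In tenderloin 3 of the 68 pathway entries were higher in ET and none lower, beside 1.63% of all genes. NFAC1, a transcription factor that calcineurin activates, averaged 30.3 ± 6.40 TPM in ET, against 12.6 ± 1.28 TPM in L (log2 difference 1.19, SE 0.16, adjusted p = 0.0126). ITPR1, the other kind of store release channel, was 1.08 higher in ET and RCN1 0.99 higher, both losing their call with scaling (adjusted p = 0.0681 and 0.0673).

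Between the muscles 29 of the 68 entries were higher in loin and 10 lower, beside 19.7% and 15.4% of all genes. The triad list had 13 of 21 higher and 1 lower, with a median of 0.57 against 0.04 for all genes. TRDN, which ties calsequestrin to RYR1, was at 879.5 ± 219 TPM in loin and 395.2 ± 105 in tenderloin (log2 difference 1.16, SE 0.18, adjusted p = 9.21e-05), and ASPH, whose gene also encodes junctin, differed by 1.03. The RYR1-binding FKB1A and FKB1B differed by 0.57 and 1.39. CALM (calmodulin) was 1.65 higher in loin, KCC2A 1.37 and the calcineurin subunit CANB1 1.18, whereas the calcineurin inhibitor RCAN2 differed by -2.84. Among other calcium transporters ITPR1 differed by 2.44, the plasma membrane pump AT2B2 by 1.29, the secretory pathway pump AT2C1 by 0.56 and the third SERCA, AT2A3, by -0.58 at 1.204 and 2.31 TPM. SRCA was 0.38 and RCN2 0.42 higher in loin, RCN1 and RCN3 differed by -0.63 and -0.80, and MCUB, a subunit that lowers uniporter activity, was 0.68 higher. With median-ratio scaling 16 of these 17 named entries kept their call, and SRCA lost it (limma adjusted p = 0.0797).

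For each gene, the entries most like it over the 19 muscle libraries were found by the root mean square (RMS) difference of centred log2(TPM + 1) among 5488 entries with a mean of at least 10 TPM. AT2A1 was nearest to PFKAM, the muscle phosphofructokinase (RMS 0.22), HCN2 (0.26) and PGM1 (0.34). AT2A2 was nearest to MYH7, the slow myosin (0.40), the malic enzyme MAOM (0.42) and MYPC1, the slow myosin-binding protein C (0.43). CASQ1 was nearest to PLPP7, ANK1 and PXL2B (0.35 to 0.43), and CASQ2 to GPAT1, MYOM3 and ACADV (0.49 to 0.62). For RYR1 the nearest were ZN358, GLTP and ZN75A (0.27 to 0.28). PRVA had no entry as near as the others had, with EGF, ITPR1 and SHSA2 at 1.24 to 1.298. The libraries share animals and fall into 2 muscles, so these distances describe shared levels and carry no test.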

How the data were processed

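The deposited values are TPM per assembled transcript. Per the submitters' processing notes, the authors trimmed reads with Trimmomatic 0.36 and quantified with Salmon 1.10.0; per the labels' protocols, libraries were stranded and made from TRIzol-extracted RNA. The deposited annotation gives a best BLASTX hit per transcript, and TPM was summed per entry. The 8 members, the gene lists and the tests were chosen with earlier results of these data known. Comparisons used limma 3.58.1 in R 4.3.3 with a mean-variance trend on log2(TPM + 1), for genes averaging 1 TPM or more, with two-sided Benjamini-Hochberg adjustment over all genes. The step was tested on simulated data drawn independently for each library, which does not cover correlation within an animal. TPM keeps no depth, so no counting interval is given. The rule for this gene group names 5 libraries as off-tissue, and these were left out. For brain, the left-out libraries were the ones rich in glial entries, and the kept ones were rich in pituitary hormones. The same animals gave both muscles. The replicate block, the ratios within an animal and the ratio tests between the muscles pair them, while the main limma fits do not. Deviations from group means correlated at a median of 0.47 (0.35 to 0.63, 9 pairs) within an animal and -0.04 between animals (81 pairs). No libraries held identical values. The planned ratio of SARCO to PPLA could not be made, so 12 ratio tests remain. Named entries are the members, up to 4 called entries per list and comparison by smallest p, and the 3 nearest entries per member. Alternatives changed the pseudocount, filter, scaling, E value limit, transcript sum, block and libraries used.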

Additional observations from a re-analysis of the deposited data

Results flagged for a closer look

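Within groups, 1 library stood far from the others for 9 of 60 combinations of a gene and a group of 4 or 5 libraries. Chance alone flags about 1 in 20. Some of the flags share a library and some rest on values near 0, so no excess over that rate is read from them. In tenderloin, PRVA was at 6.38 TPM in the L animal S0355, against 0.094 to 0.89 TPM in the other L animals, and RYR1 was at 557.8 TPM in the L animal S0384, against 248.9 to 285.1. Backfat held 6 of the 9. AT2A1 was at 6.94 TPM in ET S0309, against 0.37 to 1.74 in the other ET libraries, and at 22.8 TPM in L S0385, against 0.43 to 1.72. AT2A2 was at 40.5 TPM in ET S0309, against 11.3 to 15.7, and RYR1 at 2.81 TPM in L S0385, against 0.31 to 0.54. PRVA was listed at 0.13 TPM in ET S0309 and 0.11 TPM in L S0377 and at 0 in the other libraries of each group. In lymph, RYR1 was at 2.14 TPM in L S0377, against 0.45 to 0.93. The highest summed fast-fibre TPM of each backfat group was 159.6 in ET and 252.7 in L.

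The ET minus L difference was not the same in loin and tenderloin for 3 genes in the fit with the replicate block, by the interaction test: AT2A1 at -1.14, PRVA at 1.98 and RYR1 at -1.04 on the log2 scale. None passed in the fit of all kept muscle libraries without the block, or with the block and median-ratio scaling together, and RYR1 passed without the block when S0384 was left out. The PRVA value depended on the 1 added to each TPM. With 0.1 added it was 0.95 (adjusted p = 0.316), and the median loin to tenderloin ratio of plain TPM was 30.3 in ET and 28.9 in L.

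Members were also high in libraries outside the comparisons. The left-out library labelled L backfat S0355 held 1700 TPM of AT2A1, 452.3 of AT2A2, 2229 of CASQ1, 12.8 of CASQ2, 15.4 of PRVA and 335.5 of RYR1, each above every kept backfat library, and it held 36688 TPM of slow-fibre and 54642 TPM of fast-fibre entries. In the left-out brain libraries PRVA was at 31.9 TPM (ET S0235) and 45.5 TPM (L S0355), against at most 0.40 TPM in the kept ones, and CASQ2 was at 0.43 TPM in ET S0235, against at most 0.12. In the left-out lymph library of ET S0235, CASQ2 was at 46.3 TPM and PRVA at 5.16 TPM, against at most 0.44 and 0.47 TPM in the kept ones.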

How the results depend on the processing

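TPM keeps no depth, so low values (PRVA outside loin, CASQ2) have no counting error beside them. The SARCO over PPLA ratio could not be run. Counts of members called changed by over 1.5 times in these cases. With all labelled libraries, 1 member was called between the types in loin and 3 between the muscles; leaving out 1 animal gave 2 to 5 in loin, 0 to 1 in tenderloin and 0 to 1 for the interaction, where the replicate block gave 3, and 2 with a pseudocount of 0.1. Between the muscles the paired fit changed no other call.

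With all labelled libraries some log2 differences changed sign. For ET minus L in loin they were 1.68 for AT2A1, 0.38 for AT2A2, 0.73 for RYR1, 0.61 for CAC1S, 0.70 for JSPR1, 0.98 for KCC2A and 0.65 for KCC2B, and 1.29 for the AT2A1 over AT2A2 ratio. In backfat they were -0.29 for AT2A2, -1.06 for CASQ1 and -0.025 for CASQ2; for the interaction 1.28 for AT2A1, 0.54 for AT2A2 and 0.78 for RYR1; and between the muscles -0.067 for CASQ1 and -0.28 for SRCA. In loin this setting adds the library labelled L loin S0355, at 0.34 TPM of AT2A1, 11.6 of AT2A2 and 0.52 of RYR1. The kept L loin libraries held at least 3241, 151.7 and 873.5 TPM of these genes. The part of single added libraries in the other sign changes was not tested.

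Leaving out 1 animal turned the sign of uncalled differences only. AT2A1 in backfat ranged from -1.13 to 0.22 (without S0385), AT2A2 in tenderloin from -0.39 to 0.082 (without S0349) and RYR1 there from -0.12 to 0.17 (0.04 without S0326, 0.17 without S0384). The AT2A2 interaction ranged from -0.55 to 0.0015 (without S0385).

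The AT2A1 over AT2A2 ratio between the types ranged from -0.34 to 0.27 in loin (0.12 without S0235, 0.27 without S0384), and PRVA over AT2A1 in tenderloin from -0.11 (without S0326) to 0.69. Ratio calls were lost in leave-one-out runs, which have fewer permutations, over these ranges: CASQ1 over CASQ2 from 1.86 to 2.88 between the types in loin and from 2.12 to 2.79 in tenderloin, RYR1 over AT2A1 from -0.61 to -0.40 in loin and from -0.56 to -0.43 between the muscles, and PRVA over AT2A1 from 3.15 to 4.35 in loin and from 1.79 to 2.53 between the muscles. All labelled libraries lost the calls of CASQ1 over CASQ2 (1.74) and RYR1 over AT2A1 (-0.19) between the muscles and of PRVA over AT2A1 in loin (2.09). Without the replicate block RYR1 over AT2A1 between the muscles lost its call at -0.43.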

Other observations

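In backfat, 8 of the 56 pathway entries tested were higher in ET and none lower, beside 8.57% of all genes called in either direction. Of the 8, 4 were among 6 luminal entries, 2 among 14 triad entries and 2 among 9 mitochondrial uniporter entries. Adipocyte markers differed there too, with 6 of 7 higher in ET and summed levels of 9631 to 21487 TPM in ET and 498.6 to 7709 TPM in L. Across tissues, 15 of 22 triad entries were higher in muscle and 6 lower, whereas 1 of 7 luminal entries was higher and 6 lower, beside 15.6% of all genes called higher and 75.6% called lower.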
